A study of Homo sapiens with 24 samples.

Results

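The genes of the BCL2 family that decide whether a B cell survives or dies were examined in the super-enhancer landscape of OCI-Ly7, a human cell line from a diffuse large B-cell lymphoma (DLBCL) of germinal center origin. The 10 members were BCL2, MCL1, BCL2L1 and BCL2A1, which promote survival, and the BH3-only genes BCL2L11, BMF, BIK, BID, PMAIP1 and BBC3, which promote death. They were chosen by name, with earlier results of these data known. A super-enhancer was assigned to a gene when it overlapped the gene body (GENCODE version 44, hg38) extended by 50 kb on each side. The members made up 10 of the 19970 annotated protein-coding genes (chromosomes 1 to 22 and X), and 9 of the 2615 super-enhancers in the table met the rule for at least 1 of them.

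The study profiled H3K27ac, H3K4me1 and H3K4me3 by CUT&RUN, an assay that cuts DNA out of chromatin around an antibody-bound mark with a tethered nuclease and sequences the fragments. Its 24 samples fell into 12 groups of 2, 1 group for each of the 3 marks in each of 4 genotypes of OCI-Ly7: unedited CRISPR control clones (WT), clones with the CREBBP R1446C point mutation that inactivates its acetyltransferase (C), clones with KMT2D knocked out (K) and clones with both lesions (CK). Only WT H3K27ac had values here, as 1 signal column in which the 2 libraries were combined, which left every value without a replicate error, and no test was run. The other 22 samples, and so any change in C, K or CK, were not analysed here. The table gave no read counts, and the depth behind the combined signal is unknown.

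Proteins of this family control the permeability of the outer mitochondrial membrane. Pro-survival members hold the effectors BAX and BAK1 in check, and BH3-only members respond to damage, to lost survival signals or to growth factor withdrawal by binding the pro-survival proteins or by activating the effectors. Germinal center B cells are prone to apoptosis and are rescued by antigen and T cell help, and BCL2 itself is the gene joined to the immunoglobulin heavy chain locus by translocation in many lymphomas of this origin. Acetylation of H3K27 is found at enhancers and promoters in use. Super-enhancers, as called here by the program ROSE, are groups of neighbouring H3K27ac peaks, or at times a single peak, whose summed signal passes a cutoff. ROSE joins peaks within 12.5 kb of each other after leaving out those within 2.5 kb of a transcription start site (TSS).

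A super-enhancer lay within 50 kb of 7 of the 10 members (70%), namely MCL1, BCL2A1, BCL2L11, BMF, BIK, BID and PMAIP1, whereas BCL2, BCL2L1 and BBC3 had none. Over all protein-coding genes the share was 30.7%. By role, 5 of the 6 BH3-only genes and 2 of the 4 pro-survival genes had a region. BIK and BID had 2 regions each and the other 5 genes had 1 each. The 9 regions ranged from rank 261 to rank 2592 by signal, with a median rank of 1005. With 10 genes chosen by name, these counts describe the members, and no test of the difference from other genes was made.

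**Figure D1:**
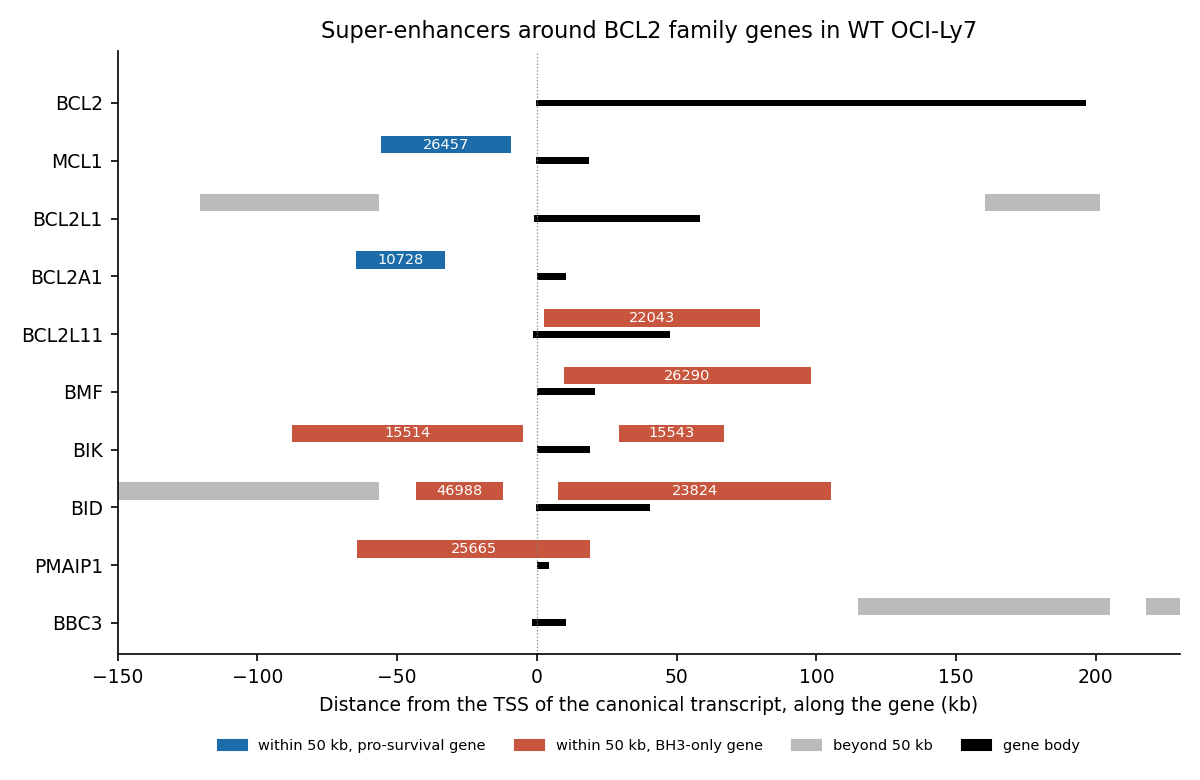
Positions of super-enhancers (coloured or gray bars) around the gene body of each member (black bars), plotted as distance in kb from the TSS of the canonical transcript along the direction of the gene, with white numbers giving the signal. The 4 genes BCL2L11, BMF, BID and PMAIP1 have a bar over the gene body, BIK lies between 2 bars, and no bar is drawn for BCL2 because its nearest region lies 3204 kb away.

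Promoters that the table bears on most directly are shown first, as the 250 bases upstream of the RefSeq start (GRCh38.p14) of 3 members whose upstream bases held no annotated exon. PMAIP1 is the member whose promoter lay inside a super-enhancer, BCL2L11 the one whose region began just past its start, and BCL2A1 the one whose region lay at the greatest distance within the window. Capitals mark matches, on either strand, to any of 8 short motifs, each counted over all promoters of the same length. The sequences run 5′ to 3′ along the gene, and no marked match overlapped another in them.
PMAIP1 (chr18:59899746-59899995, + strand): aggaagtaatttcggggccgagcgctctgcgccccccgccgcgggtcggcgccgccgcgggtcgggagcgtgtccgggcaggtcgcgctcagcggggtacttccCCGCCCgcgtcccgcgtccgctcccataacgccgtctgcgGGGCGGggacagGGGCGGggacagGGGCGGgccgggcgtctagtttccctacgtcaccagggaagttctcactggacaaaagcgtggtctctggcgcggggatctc
BCL2L11 (chr2:111120664-111120913, + strand): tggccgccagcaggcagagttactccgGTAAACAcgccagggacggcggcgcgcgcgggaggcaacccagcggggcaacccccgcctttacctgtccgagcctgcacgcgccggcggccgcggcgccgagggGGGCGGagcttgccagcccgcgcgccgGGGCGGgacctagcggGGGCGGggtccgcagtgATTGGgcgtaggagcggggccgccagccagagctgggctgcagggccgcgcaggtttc
BCL2A1 (chr15:79971197-79971446, − strand): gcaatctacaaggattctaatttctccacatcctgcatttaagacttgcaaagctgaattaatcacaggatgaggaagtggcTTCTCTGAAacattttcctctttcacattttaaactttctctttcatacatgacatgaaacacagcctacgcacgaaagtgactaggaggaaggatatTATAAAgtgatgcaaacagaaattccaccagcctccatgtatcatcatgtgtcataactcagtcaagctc
The PMAIP1 and BCL2L11 promoters were rich in CpG dinucleotides, with 36 and 34 of them and a GC content of 72.8% and 76.8%. The BCL2A1 promoter was not, with 2 CpG dinucleotides and a GC content of 38.8%, against a median of 11 and 58% over the 35116 promoters of the table.

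The letters matched in these promoters were common ones for the most part. The GC box, GGGCGG, occurred in 42.6% of all promoters of this length and in 4 of the 8 members with an entry (BCL2L11, BMF, BID and PMAIP1). PMAIP1 held it 4 times and BCL2L11 3 times. CCAAT occurred in 32.0% of all promoters and in BCL2L11, BMF and BBC3. TATAAA occurred in 10.7% of promoters and in BCL2L1 and BCL2A1, and the AP-1 letters TGANTCA, in which N is any base, in 6.57% and in BBC3. The RefSeq start of BCL2L1 and that of BBC3 lay 1095 and 1468 bp from the canonical starts used for distances, and 26 and 99 of their 250 bases were exonic. The FOXO letters TGTTTAC, present in 2.98% of all promoters, occurred once among the members, in BCL2L11, a gene known as a target of FOXO factors. The STAT or BCL6 type letters TTCNNNGAA, present in 6.57% of all promoters, occurred in BCL2A1 alone among the members. The κB type letters GGANNNTCC, found in 7.80% of all promoters, were in none of the 8 members with an entry, nor were the CRE letters TGACGTCA, found in 1.65%. Such matches describe the sequence and do not show that a factor binds there.

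The pro-survival genes differed widely in their distance to a super-enhancer. BCL2 (ENSG00000171791.14), the founding member of the family, spans 197 kb at chromosome 18, 63123346 to 63320128 on the minus strand. No super-enhancer lay within 50 kb or within 1 Mb of it, and the nearest was 3204 kb downstream of the gene. Of all protein-coding genes, 94.2% had a nearer region. The 19 other protein-coding genes within 1 Mb of BCL2 had no region either. BCL2 lay in a stretch of 17.2 Mb without any region, from 59919035 to 77080201, which held 47 protein-coding genes wholly inside it. Only 9 of the 2592 stretches between neighbouring regions were longer, and the median stretch was 216 kb.

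Chromosome 18 as a whole held few regions. It had 29, against a median of 118 per chromosome, and 16.9% of its 266 genes had a region within 50 kb. In the longest of 10 length classes, which runs from 161.6 to 2474 kb and holds BCL2 near its lower end, 28.5% of genes had one. The share was 37.6% in the class just below, from 90.8 to 161.5 kb. All distances run along the reference chromosome, so a rearrangement in the cells would not show in them, and enhancers below the ROSE cutoff of 10617 were not analysed here.

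MCL1 (ENSG00000143384.14, chromosome 1, 150560895 to 150579738, minus strand) encodes a short-lived survival protein on which germinal center B cells depend. Its super-enhancer lay upstream at 150588909 to 150635504, 9.17 kb from the gene, with a signal of 26457 and rank 857. That signal was 2.49 times the cutoff, against a median of 1.86 times over all regions. Within its 46.6 kb it held 12 constituent peaks and a signal per bp of 0.568, which exceeded that of 79.8% of regions. The region overlapped ENSA and included the ENSA start site, with introns making up 51.8% of its length, exons 9.91% and sequence outside protein-coding genes 38.3%. ADAMTSL4 and GOLPH3L also lay within 50 kb of it. MCL1 was thus close to a dense region, while ENSA was the gene that the region covered.

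BCL2A1 (ENSG00000140379.9, chromosome 15, 79960892 to 79971196, minus strand) encodes a survival protein known as a target of NF-κB in B cells. Its region, at 80003979 to 80035794, lay 32.8 kb upstream and entirely outside protein-coding genes. It carried the lowest signal of the 9, 10728, at rank 2592. Just 0.880% of regions had a lower signal, and 119 regions lay no more than 5% above the cutoff, as this one did at 1.01 times. The region was 31.8 kb long with 10 constituents, and ZFAND6 was nearer to it than BCL2A1 was. Its place in the table is thus at the lower limit of what ROSE called, with no replicate to show how stable that call is.

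BCL2L1 (ENSG00000171552.14, chromosome 20, 31664452 to 31723989, minus strand), which encodes BCL-XL, lay just outside the rule. Its nearest region, at 31779360 to 31843225 over TPX2 and MYLK2, was 55.4 kb upstream with a signal of 12039 (1.13 times the cutoff) and rank 2326. The signal per bp there was 0.189, and 8.64% of regions had a lower one. The next region, over HM13 and MCTS2, was 102 kb downstream at rank 2074. Its surroundings were rich in regions all the same, with 5 within 1 Mb, and 63.3% of the 30 other genes within 1 Mb had a region within 50 kb. For comparison, BCL2A1 at 32.8 kb was the farthest member inside the window, and BCL2L1 at 55.4 kb the nearest outside it.

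**Figure D2:**
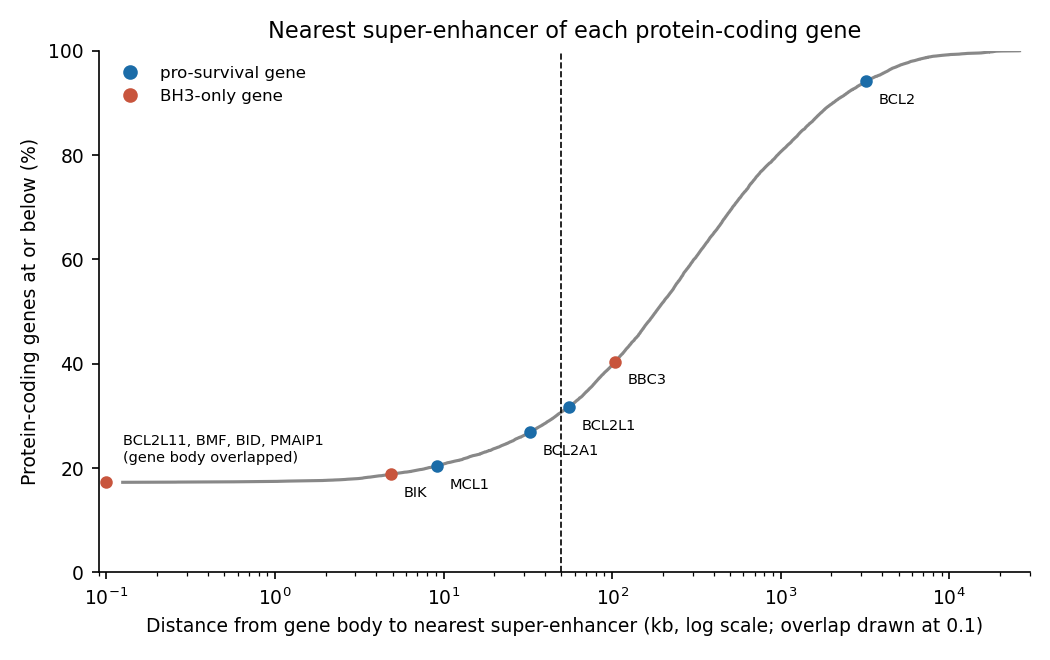
Cumulative share of 19970 protein-coding genes (gray line, y axis in percent) by distance from the gene body to the nearest super-enhancer (x axis, kb, log scale, overlap drawn at 0.1), with the members as points and the 50 kb limit as a dashed line. The genes BCL2L11, BMF, BID and PMAIP1 sit at the left edge, while BCL2 sits at 3204 kb, past 94.2% of genes.

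A region overlapped the gene body of 4 members, BCL2L11, BMF, BID and PMAIP1, all of them BH3-only, against 17.3% of all protein-coding genes. The same 4 were the nearest protein-coding gene, or among the overlapped ones, of at least 1 region (18.1% of all genes). The TSS lay inside a region for PMAIP1 only (7.81% of all genes). Of the 9 regions, 4 overlapped their member, 4 lay upstream of it and 1 downstream. The median distance from a member to its nearest region was 7.04 kb, against 182 kb over all protein-coding genes.

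BCL2L11 (ENSG00000153094.25, chromosome 2, 111119378 to 111168444, plus strand) encodes BIM, which binds all the pro-survival proteins and is central to the deletion of B cells. Its region ran from 111123656 to 111200701, so that it began 2.74 kb past the canonical start. The stitched span covered 91.3% of the gene, from exon 2 to exon 4, and 32.3 kb beyond its end. Constituent peaks made up 13.5% of the region. Peaks within 2.5 kb of a start site had been left out, so the edge near the start does not show where H3K27ac began. The signal was 22043 (2.08 times the cutoff, rank 1121) over 77.0 kb and 26 constituents. Its signal per bp of 0.286 was below the median of 0.343. Introns made up 50.4% of it, exons 7.69% and sequence outside protein-coding genes 41.9%.

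The BCL2L11 region stood alone. It was the only one within 1 Mb of the gene, with the next at 5200 kb upstream over NCK2 (rank 492) and 1352 kb downstream over TTL and POLR1B (rank 1952). ACOXL was the only other protein-coding gene within 50 kb of it. Of the 11 other genes within 1 Mb of BCL2L11, 9.09% had a region.

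PMAIP1 (ENSG00000141682.12, chromosome 18, 59899996 to 59904305, plus strand) encodes NOXA, a BH3-only protein that binds MCL1 and BCL2A1. Its region, at 59835705 to 59919034, covered the whole gene together with the promoter shown above, and reached 64.3 kb upstream and 14.7 kb downstream. The signal was 25665 (2.42 times the cutoff, rank 894) with 20 constituents over 83.3 kb. The signal per bp was 0.308. PMAIP1 was the only protein-coding gene within 50 kb of this region, and 94.8% of its bases lay outside protein-coding genes, whereas 22.1% of all regions (579) had exactly 1 protein-coding gene so near. A TSS inside a region does not mean that a constituent peak lay on it, since peaks at start sites had been left out.

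This region was isolated too. It was the only one in the 25.9 Mb between 51190461 and 77080202 on chromosome 18, a span with 75 protein-coding genes. The neighbours were 8710 kb upstream over MEX3C (rank 1590) and 17176 kb downstream over MBP (rank 1358). None of the 8 other genes within 1 Mb of PMAIP1 had a region. The nearest region of BCL2 is the same one, so on this sparse part of chromosome 18 the death gene PMAIP1 was covered by a region and the survival gene BCL2 lay 3204 kb from it.

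BMF (ENSG00000104081.14, chromosome 15, 40087890 to 40108892, minus strand) encodes a BH3-only protein released from the cytoskeleton under stress. Its region, at 40010902 to 40099242, covered 54.1% of the gene at its 3′ end and stopped 9.64 kb short of the canonical start. The signal was 26290 (2.48 times the cutoff, rank 865) with 20 constituents over 88.3 kb, and the signal per bp was 0.298. BMF held 11.4 kb, or 12.9%, of the region. The rest extended over SRP14, whose start site it contained, and into EIF2AK4, so that 3 genes shared it.

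BID (ENSG00000015475.19, chromosome 22, 17734138 to 17774770, minus strand) links death receptors to mitochondria, as its protein is cut by caspase-8. It had the highest summed signal of the members, 70812, from 2 regions on either side of its start. The overlapping region, at 17669130 to 17766810, had a signal of 23824 (2.24 times the cutoff, rank 1005) over 97.7 kb and 27 constituents. It covered 80.4% of BID, from exon 2 to exon 6, and also overlapped BCL2L13, another gene of the family. The upstream region, at 17786506 to 17817527 and 11.7 kb from BID, had a signal of 46988 (4.43 times the cutoff, rank 261) in only 31.0 kb and 7 constituents. The 19.7 kb between them held the BID start.

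The upstream BID region was the densest by far of the 9. Its signal per bp of 1.51 was above that of 98.4% of regions and gave rank 41, and its signal per bp of constituent length, 16.7 against a median of 3.03, gave rank 42. The overlapping BID region had a signal per bp of 0.244 for comparison. The dense region lay within MICAL3, with 70.8% of its bases intronic and 25.5% exonic, and its GC content was 53.8%. Another region, at 17830840 to 17971545, followed 13.3 kb farther on within MICAL3, just over the stitching distance, with rank 94 and a signal of 68312. That one lay 56.1 kb from BID and so outside the window. MICAL3 was overlapped by 3 regions in all, and distance alone does not tell which gene they act on.

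BIK (ENSG00000100290.3, chromosome 22, 43110750 to 43129712, plus strand) encodes a BH3-only protein of the endoplasmic reticulum. It lay in the 34.4 kb between a pair of regions without being overlapped by either. The upstream region, at 43023143 to 43105839 over TTLL1, was 4.91 kb away with a signal of 15514 and rank 1757. The downstream region, at 43140220 to 43177872 over MCAT, TSPO and TTLL12, was 10.5 kb away with a signal of 15543 and rank 1752. The signals were nearly equal, at 1.46 times the cutoff each, but the lengths were 82.7 and 37.7 kb and the signals per bp 0.188 and 0.413. Of all regions, 8.37% had a lower signal per bp than the upstream one and 63.7% a lower one than the downstream one. The downstream region also had the highest GC content of the 9, 56.2%, above that of 95.3% of regions.

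BIK and BID lie on chromosome 22, where regions were frequent. Of its 447 genes, 65.5% had a region within 50 kb, and 80% of the 25 other genes within 1 Mb of BIK did. Without both genes, 5 of the remaining 8 members had a region, against 29.9% of genes off chromosome 22.

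BBC3 (ENSG00000105327.18, chromosome 19, 47220822 to 47232766, minus strand) encodes PUMA, which binds all the pro-survival proteins, and it was the BH3-only gene without a region. The nearest one lay 104 kb downstream at 47025998 to 47116324, over NPAS1, TMEM160, ZC3H4 and SAE1. It had a signal of 21769 (2.05 times the cutoff) and rank 1136. A further region lay 208 kb downstream (rank 823) and another 345 kb upstream over BICRA (rank 1151). Of all genes, 40.4% had a nearer region than BBC3, so its distance was near the middle of the range.

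**Figure D3:**
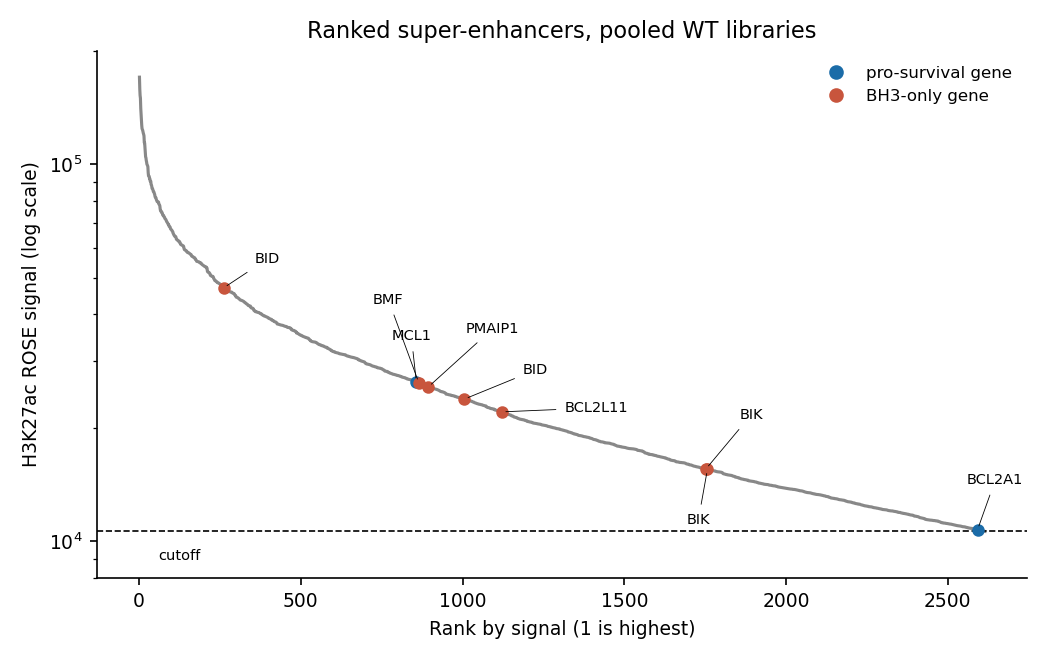
H3K27ac ROSE signal (y axis, log scale, as deposited) of all 2615 super-enhancers by rank (x axis, 1 is highest), with the 9 regions within 50 kb of members as points and the cutoff of 10617 as a dashed line. The regions of MCL1, BMF and PMAIP1 lie together between ranks 857 and 894, while the upstream BID region at 261 and the BCL2A1 region at 2592 stand at either end.

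Ordered by summed signal within 50 kb, the members ran from BID at 70812 through BIK at 31057, MCL1 at 26457, BMF at 26290, PMAIP1 at 25665 and BCL2L11 at 22043 to BCL2A1 at 10728. Without replicate values it cannot be said which neighbours in this order differ. The regions of MCL1, BMF and PMAIP1, on different chromosomes, were close together at ranks 857, 865 and 894. Of the 9 regions, 6 were among the 1307 of all 2615 with the highest signal. The region upstream of BID was the 1 among the highest 262 of 2615. A region of that upper set of 1307 lay within 50 kb of 5 members, MCL1, BCL2L11, BMF, BID and PMAIP1, against 16.8% of all protein-coding genes.

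The 9 regions were described beside the medians of the whole table. Their median length was 77.0 kb (range 31.0 to 97.7) against 60.7 kb over all regions, and 5 of 9 were longer than that. Their median signal was 23824 against 19736. Their median signal per bp was 0.308 against 0.343, and only 3 of 9, upstream of BID, upstream of MCL1 and downstream of BIK, were above the latter. Per bp of constituent length the medians were close, 3.05 against 3.03. The number of constituents had the same median of 16 in both, with 7 to 27 in the 9 regions. Median GC content was 45.2% against 45.7%, and 4 of 9 regions exceeded the latter. CpG dinucleotides occurred at a median of 15.6 per kb in the 9 regions and 14.2 per kb over all regions.

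The summed signal hides different shapes. The BID region with 7 constituents had about the same length as the BCL2A1 region with 10, 31.0 and 31.8 kb, and a signal of 46988 against 10728. BCL2L11, BMF and PMAIP1 had regions alike in shape, 77.0 to 88.3 kb long with a signal per bp from 0.286 to 0.308. In these 3 regions the length was above the median of the table and the signal per bp below it.

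**Figure D4:**
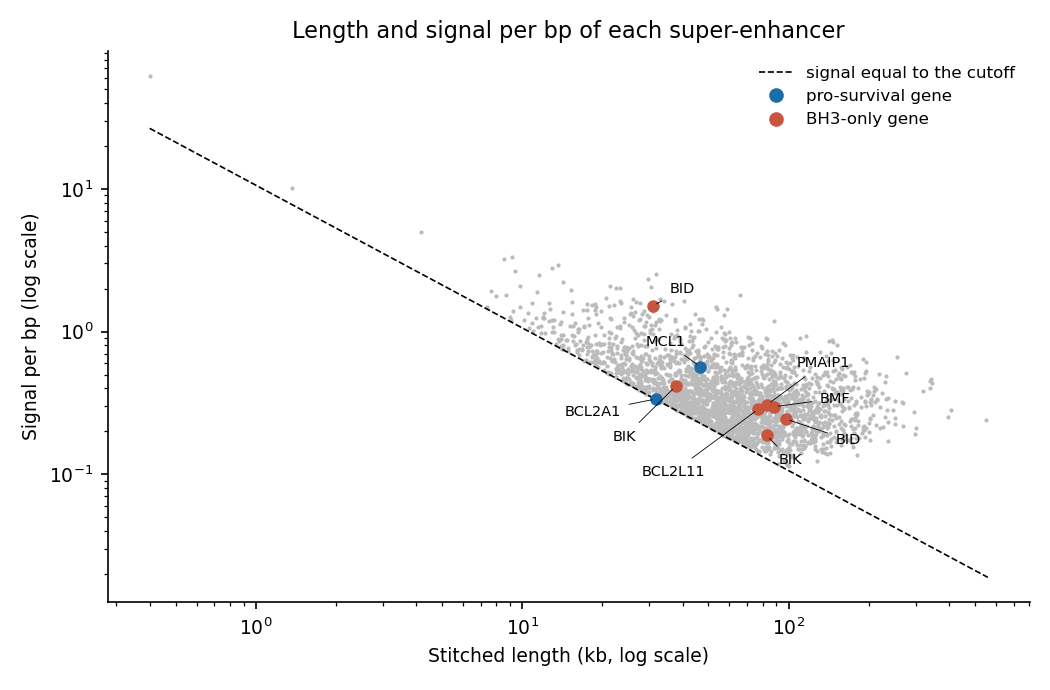
Signal per bp (y axis, log scale) against stitched length (x axis, kb, log scale) of all 2615 super-enhancers (gray points) and of the 9 regions near members (coloured points), with the dashed line where the summed signal equals the cutoff. The upstream BID region lies high at 1.51 signal per bp and 31.0 kb, the BCL2A1 region lies on the line, and those of BCL2L11, BMF and PMAIP1 lie together.

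Another protein-coding gene lay within 50 kb of 8 of the 9, the exception being that of PMAIP1, and the member was the nearest gene, alone or with other overlapped genes, in 4. Such sharing was common over the whole table, where 72.8% of regions had more than 1 protein-coding gene within 50 kb, with a median of 3 and a range from 0 to 24. The share of genes with a region also moved with gene length, from 19.0% in the shortest length class to 37.6% in the ninth of 10. The members ranged from 4.31 kb for PMAIP1 to 197 kb for BCL2, and in their own length classes the shares were 25.5% to 36.2%.

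The rest of the apoptosis pathway was described from 5 lists of 41 genes, of which 22 (53.7%) had a super-enhancer within 50 kb. In the remainder of the BCL2 family, 7 of 11 genes (63.6%) had one: the BH3-only genes HRK (rank 653) and BAD (1531), the effector relative BOK (2078), and BCL2L10 (2610), BCL2L13 (1005), BCL2L14 (1127) and BCL2L15 (1789). BCL2L13 shares its region with BID. The effectors BAX and BAK1 had none, at 433 kb and 50.3 kb, nor did BCL2L2 and BCL2L12. In the death receptor pathway 6 of 9 genes (66.7%) had one. CASP10, CASP8 and CFLAR, neighbours on chromosome 2 that encode the initiator caspases and their inhibitor, were all within 50 kb of the same region of rank 755 (signal 28487), and TNFRSF1A (756), TNFRSF10B (1431) and RIPK1 (1971) had others. FAS, FADD and TNFRSF10A had none.

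In the apoptosome and caspase list 2 of 8 genes (25%) had one, among them APAF1 (rank 2452), which forms the apoptosome, while CYCS, CASP9 and DIABLO were among those without. Of the inhibitors of apoptosis, 3 of 6 (50%) had one. BIRC2 and BIRC3 shared the region of rank 407 (signal 38828), which overlapped both, and BIRC6 had one of rank 2585, while XIAP, BIRC5 and NAIP had none. Among FOXO genes and other regulators of stress responses 4 of 7 (57.1%) had one. MDM4, a relative of the ubiquitin ligase gene MDM2, had the highest-ranked region of these 5 lists (rank 183, signal 55133), FOXO1 had 3 regions with the first at rank 379 (signal 40047), and TP73 (2102) and MDM2 (2256) had weaker ones. FOXO3 was among those without. Genes that share a region are not separate observations, and the lists are small.

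**Figure D5:**
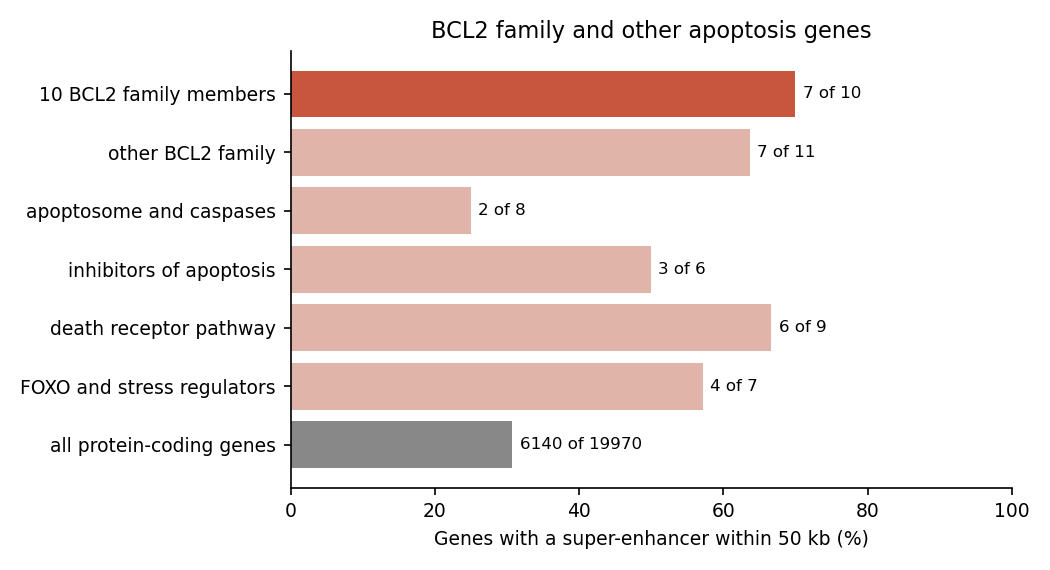
Share of genes with a super-enhancer within 50 kb (x axis, percent) in the 10 members, in 5 lists of other apoptosis genes and in all protein-coding genes, with counts beside the bars. The members reach 7 of 10 and the apoptosome and caspase list 2 of 8, beside 6140 of 19970 for all genes.

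Marker genes were used to check the labelled cell type. Of 12 germinal center B cell markers, 10 (83.3%) had a region within 50 kb, among them BCL6, PAX5, MS4A1 and MME, and CD22 was among those without. Of 16 markers of T cells, myeloid cells, erythroid cells, liver, muscle and neurons, 3 (18.8%) had one, beside 30.7% of all protein-coding genes. These were CSF1R and 2 of the 6 T cell markers (33.3%), TCF7 and CD28. CD28 had 2 regions, the first at rank 301. The highest-ranked regions of the B cell markers CD79A (159) and PAX5 (216) were ahead of it. Those of the other B cell markers with a region were behind it, among them MS4A1 (1218), BCL6 (1468) and MME (2579). The copy number of these loci in OCI-Ly7 was not measured in the table, and its part in the signal was not tested.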

How the data were processed

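H3K27ac was profiled by CUT&RUN in WT OCI-Ly7 clones. As described in the study, the authors processed reads in the nf-core cutandrun pipeline, each genotype having its own IgG control (the submitters' processing notes name hg38 as the build), and normalised depth to the reads that fell at promoters. Peaks came from SEACR, summits from MACS2, and super-enhancers from ROSE without start sites of non-coding RNA. The deposited table gives, per region, a ROSE signal summed over the stitched region for the 2 libraries combined. The header does not state its scaling, so values were compared only within the table. Peaks were stitched over 12.5 kb, and all 2615 regions lay above the header's cutoff of 10617. Without counts no interval could be computed, and without replicate values no test.

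Regions were compared with GENCODE version 44 protein-coding genes (minimum overlap 1 bp). The canonical transcript gave exons and TSS, and the signal was divided by end minus start to give a value per bp. Each member was named with every region within 50 kb or else the nearest, and from the other lists genes with a region by their highest-ranked one. The counts cover the whole lists, and some of their genes are not reported here by name. Genes in the text without a region, and features of single regions, were named after their values were seen. Members and lists were chosen with earlier results of these data known. Promoters came from RefSeq (GRCh38.p14), where 8 of 10 members matched and all 8 were identical to hg38. MCL1 and BIK had no entry. A planned search for BH3 letters in the member proteins was not run. Alternatives were other windows (0, 10, 25, 100 and 200 kb), the TSS, subsets by signal, nearest genes and other rankings. Overlap and distance procedures were tested on simulated data. Python 3.11.15, numpy 2.4.6, pandas 2.3.3 and matplotlib 3.10.9 were used.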

Additional observations from a re-analysis of the deposited data

How the results depend on the processing

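Of 47 alternatives over 6 results, 28 stayed within 1.5 times the reported value and 19 moved. Any change in a median rank was counted as moved. Counts, shares and ranks have no sign, so none of them could reverse. With gene bodies not extended (0 kb) the members with a region fell to 4 (BCL2L11, BMF, BID and PMAIP1) with 4 regions, all genes to 17.3% and the other apoptosis genes from 22 to 14. With 200 kb the regions near members rose to 14 and the share of all genes to 51.7%, with BCL2L1 and BBC3 added, so that BCL2 alone had none. In the 1307 regions with the highest signal the share of all genes was 16.8% and the apoptosis count 12. In the highest 262 regions the members were 1 (BID) with 1 region, all genes 3.59% and the apoptosis count 1. Counting only the gene nearest to a region within the window gave 4 members, 4 regions and 17.7% of genes. The median rank of the 9 regions, 1005 by signal, was 1529 by signal per bp, 1301 by signal per bp of constituent length, 886 by stitched length and 1295 by number of constituents. The direction of the shifts in counts and shares follows from the construction of each setting. The median rank moved both ways, and so depends on the measure used for ranking. RefSeq gene bodies, an alternative chosen after seeing the data, also gave 7 members.

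No paired analysis was possible because both libraries entered 1 combined column, which carries no replicate number, and leaving out each replicate was not run for the same reason. How far the ranks would vary between libraries is therefore unknown, above all for the BCL2A1 region at 1.01 times the cutoff. Regions were linked to genes by distance alone, and weaker enhancers near BCL2, BCL2L1 and BBC3 were not analysed here.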
